A study of Mus musculus with 21 samples.

Results

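The immediate early factors described here are 10 transcription factor genes of the AP-1 and Egr families: Fos, Fosb, Fosl2, Jun, Junb, Jund, Atf3, Egr1, Egr2 and Egr3. These genes, and the gene lists used below, were chosen with earlier results of these data known. Their probe sets were taken by name, through the gene symbol of the array platform's annotation, and not by any measured value. This gave 12 probe sets of 22626 and 10 genes of 12393, with 2 probe sets each for Jun and Egr2. The study exposed female BALB/c mice, aged 8 weeks, once to material placed in the airways by intratracheal aspiration, and measured total RNA of the homogenised left lung on arrays. The tested agent was MACA, a crude antigen of the fungus Metarhizium anisopliae, given at 20 µg in 50 µl of Hank's balanced salt solution (HBSS). Bovine serum albumin (BSA), a foreign protein, was given at the same dose in the same volume of HBSS, and the vehicle controls received 50 µl of HBSS. Every animal therefore received the HBSS instillation, and no group without an instillation was analysed here. Lungs were taken 3 h after the exposure (MACA n = 4, BSA n = 3, HBSS n = 3) or 12 h after it (MACA n = 3, BSA n = 4, HBSS n = 4), with 1 array per lung, 21 in all, and the labels call them biological replicates. The comparisons ask how these early factors stood after the fungal extract, after the protein and after the vehicle, at each of the 2 times.

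AP-1 is a dimer of basic leucine zipper proteins. Fos proteins pair with Jun proteins, Jun proteins can also pair with each other, and Atf3 pairs with Jun proteins or with itself. The Egr proteins are zinc finger factors that bind GC-rich DNA. Most of these genes are transcribed within minutes of a growth factor, cytokine, stress or microbial signal by factors already present in the cell, such as SRF with its ternary complex partners, CREB and NF-kB, and their mRNAs are short-lived. In the lung they respond in epithelium, endothelium and leukocytes to injury, stretch and inhaled irritants.

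The values are array intensities after quantile normalisation, in the arbitrary units of the deposited table. Differences are on the log2(intensity + 16) scale, where a dim gene's change comes out too small. The noise level, taken from the size of the values below 0, was an intensity of 40.9 (5.83 on the log2 scale). Fos, Jun, Junb, Jund, Atf3, Egr1 and the brighter Egr2 probe set exceeded it on all 21 arrays, Fosl2 on 10, Egr3 on 6 and Fosb on 3. A change was called at a limma adjusted p under 0.05 over all 12393 genes. Whether the values of groups overlapped describes these arrays and is not a test. With 3 or 4 arrays per group, genes that do not change can also separate. The share of all genes without overlap was not counted. The replicates are separate animals as far as the labels say, and p-values set a difference between groups against the spread of these arrays within groups. The lung epithelium markers were above noise in every group (each of 12 genes on all 21 arrays, summed intensity 68968 to 83194). A spiked hybridisation control split the arrays into a high set of 13 (ratio of its 3' to its 5' probe set 1.62 to 1.91) and a low set of 8 (0.939 to 1.22). In the low set were the MACA 3 h arrays numbered 3 and 4, the BSA 12 h arrays with those numbers, and every HBSS 12 h array. What differed between these sets is not given in the sources used here. For the 10 factors each result is therefore also given with the set fitted as a term, or within the high set, where that changed the call. Only the MACA 3 h and BSA 12 h groups hold arrays of both sets, so the set term is estimated from them.

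Start regions from the RefSeq table of build GRCm38.p6, reaching from 250 bases before to 50 bases after an annotated start, were matched for 8 of the 10 genes (Fos, Fosb, Fosl2, Jun, Junb, Jund, Atf3 and Egr2). The 4 shown first belong to genes that were higher after MACA at 3 h and hold the letters TGACG, the core of the cyclic AMP response element (CRE). The Jund region is shown as one without it. Fosb, which holds it, and Fosl2 and Jun, which do not, were also higher after MACA at 3 h and are not shown. Letters are in lower case, 5′ to 3′, and capitals mark TGACG on either strand (CGTCA on the other), the CArG box that SRF recognises, and TATAAA, the TATA box.
Fos (chr12:85473640-85473939, plus strand): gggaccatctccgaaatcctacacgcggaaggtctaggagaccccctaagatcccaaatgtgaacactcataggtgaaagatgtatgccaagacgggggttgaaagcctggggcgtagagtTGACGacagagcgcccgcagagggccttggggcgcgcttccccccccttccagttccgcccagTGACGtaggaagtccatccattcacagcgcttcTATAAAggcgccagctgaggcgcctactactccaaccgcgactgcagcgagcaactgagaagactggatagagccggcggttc
Junb (chr8:84978699-84978998, minus strand): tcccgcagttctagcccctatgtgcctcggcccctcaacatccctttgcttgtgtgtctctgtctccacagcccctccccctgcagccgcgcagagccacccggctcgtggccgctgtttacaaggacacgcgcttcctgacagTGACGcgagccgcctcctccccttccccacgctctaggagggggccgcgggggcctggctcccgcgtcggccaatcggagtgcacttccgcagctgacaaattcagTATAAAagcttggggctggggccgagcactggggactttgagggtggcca
Atf3 (chr1:191183284-191183583, minus strand): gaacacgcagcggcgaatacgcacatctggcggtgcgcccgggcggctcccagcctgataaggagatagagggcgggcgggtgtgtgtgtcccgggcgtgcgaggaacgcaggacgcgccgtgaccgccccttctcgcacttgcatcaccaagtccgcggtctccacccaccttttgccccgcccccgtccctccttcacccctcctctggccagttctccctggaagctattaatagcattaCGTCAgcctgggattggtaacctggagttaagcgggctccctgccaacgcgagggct
Egr2 (chr10:67537619-67537918, plus strand): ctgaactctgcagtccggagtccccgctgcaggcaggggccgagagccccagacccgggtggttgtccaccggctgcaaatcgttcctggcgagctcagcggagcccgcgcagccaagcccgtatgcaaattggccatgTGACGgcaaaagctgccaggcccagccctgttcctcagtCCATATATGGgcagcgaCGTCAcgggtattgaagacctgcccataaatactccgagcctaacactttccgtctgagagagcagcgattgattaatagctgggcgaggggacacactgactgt
Jund (chr8:70697489-70697788, plus strand): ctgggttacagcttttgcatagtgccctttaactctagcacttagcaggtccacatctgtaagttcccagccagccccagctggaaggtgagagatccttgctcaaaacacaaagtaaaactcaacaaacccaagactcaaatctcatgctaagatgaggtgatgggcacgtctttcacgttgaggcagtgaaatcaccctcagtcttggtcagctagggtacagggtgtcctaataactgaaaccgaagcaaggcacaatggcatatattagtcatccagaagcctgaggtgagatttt

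TGACG stood in the regions of Fos, Fosb, Junb, Atf3 and Egr2, 5 of 8 genes, against 20.8% of the 32851 regions in the table. This motif was chosen after the sequences were seen. In Fos its copies began at −129 and −66 from the start, with TATAAA at −33. In Junb TGACG began at −106 and TATAAA at the annotated start itself, and in Atf3 TGACG began at −7. Egr2 held it at −111 and −55, on either side of a CArG box at −72, in start region 3 of its 5. The CArG box was found in no other of the 8 genes and in 1.63% of all regions. The full CRE, TGACGTCA, which contains TGACG on both strands, was in none of the 8 and in 1.79% of all regions. The AP-1 site TGANTCA was also in none, against 7.81%. The Egr sites GCGTGGGCG and GCGGGGGCG were searched together and found in Fosb and Fosl2, against 3.47% of all regions. The NF-kB site was in Fos, Fosb, Fosl2 and Egr2 region 1, against 8.46%, and TATAAA was in Fos and Junb, against 13.6%. All searches covered both strands. A gene was counted if any of its regions matched, and Egr2 has 5, while the shares are of single regions. A match describes letters in these windows and not a bound site.

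**Figure D1:**
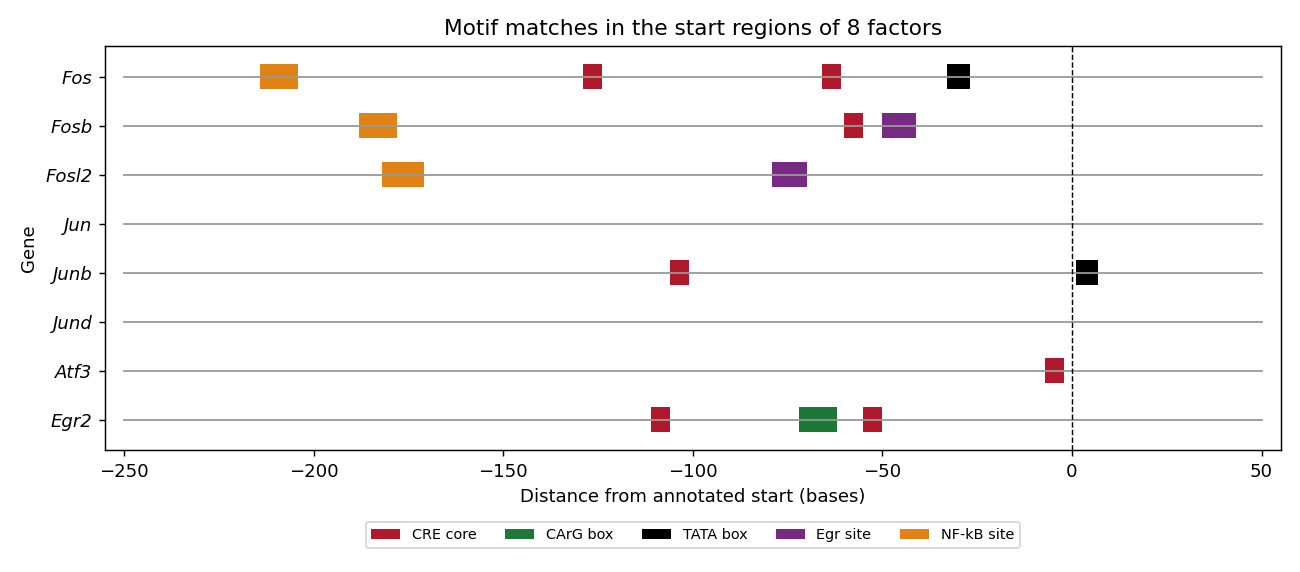
Motif matches in the RefSeq start regions of 8 factors (rows), by distance in bases from the annotated start (dashed line); each box is a match on either strand, coloured by motif, and the Egr2 row is start region 3. Fos, Fosb, Junb, Atf3 and Egr2 carry the CRE core, Egr2 alone carries a CArG box, and Jun and Jund have no match.

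At 3 h, 8 of the 10 factors were higher in MACA lungs than in HBSS lungs and none was lower, where 4.84% of all genes were higher and 3.28% lower. The members' median log2 fold was 1.5 (1.29 with Fosb and Fosl2 at the lower bounds given below), against -0.02 over all genes. Egr1, Atf3, Junb, Egr2, Fos, Fosl2, Fosb and Jun passed the test, listed by descending log2 fold. Jund and Egr3 did not pass.

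Among the Fos proteins, Fos itself, the prototype partner of Jun, measured 2459, 2483, 2064 and 3206 in the MACA lungs, against 925, 1013 and 666 in the HBSS lungs. Every MACA value lay above every HBSS value (log2 fold 1.54 ± 0.26 (SE), adjusted p = 0.00183, 2.91-fold). Fosb, whose long and short forms both pair with Jun proteins, measured 34.5, 62.1, 41.1 and 90.8 after MACA, against 16.1, 27.1 and 1.44 after HBSS. Fosb exceeded the noise level on 3 of 4 MACA arrays and on no HBSS array, so that its rise is at least 1.23-fold (log2 fold 1.28 ± 0.26 (SE), adjusted p = 0.00661). Fosl2, which encodes Fra-2, measured 90.8, 109.6, 69.8 and 144 after MACA, against 15.1, 39 and 29.3 after HBSS. All 4 MACA arrays and none of the 3 HBSS arrays exceeded noise, a rise of at least 2.05-fold (log2 fold 1.45 ± 0.23 (SE), adjusted p = 0.00101). Fosl1 (Fra-1), the remaining Fos family gene, is described with the other AP-1 factors.

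The Jun proteins moved by very different amounts. Junb, a Jun family member that can oppose Jun on some targets, measured 1255, 1524, 1831 and 2512 in MACA lungs, against 373, 392 and 287 in HBSS lungs. The lowest MACA array was above the highest HBSS array, and Junb rose 4.78-fold (log2 fold 2.26 ± 0.26 (SE), adjusted p = 8.25e-05). Jun, the strongest activator of the Jun proteins, measured 2400.5, 2465, 2665 and 3024 after MACA, against 1888, 2054 and 2091 after HBSS. The groups did not overlap, but the difference was small (log2 fold 0.38 ± 0.09 (SE), adjusted p = 0.0169). The second Jun probe set did not pass (log2 fold 0.18, adjusted p = 0.219 over all probe sets, of which 3.83% were higher), so the call for Jun rests on 1 of 2 probe sets. Jund, which many tissues express without a stimulus, measured 2387, 2149, 2720.2 and 3921 after MACA and 2285, 1864 and 2357 after HBSS. Its groups overlapped, and the difference did not pass (log2 fold 0.33, adjusted p = 0.4, 95% interval -0.14 to 0.80).

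Atf3, a stress-induced factor that in mouse macrophages acts as a brake on Toll-like receptor responses, measured 547, 953, 718 and 1134 in MACA lungs, against 154, 166 and 137 in HBSS lungs. It rose 4.91-fold, with the groups far apart (log2 fold 2.30 ± 0.32 (SE), adjusted p = 0.000324).

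Egr1, the founding Egr factor, measured 4005, 4167, 3284 and 5755 in MACA lungs, against 796, 1032 and 608 in HBSS lungs. It rose 5.22-fold (log2 fold 2.39 ± 0.31 (SE), adjusted p = 0.000175), and no HBSS array came near the lowest MACA array. Egr2, also called Krox20 and known for its part in peripheral myelination, measured 256, 342, 206 and 393 after MACA, against 75.9, 108 and 48.7 after HBSS. It rose 3.4-fold (log2 fold 1.76 ± 0.23 (SE), adjusted p = 0.000202), and its second probe set, under noise on all HBSS arrays, was at least 2.48-fold higher (adjusted p = 0.00494). Egr3 measured 3.39, -0.436, 98.9 and 38.9 after MACA and 18.2, 6.97 and 49.7 after HBSS, with 1 array of each group above noise. At that level the arrays do not fix a direction (log2 fold 0.01, adjusted p = 1, 95% interval -1.38 to 1.39).

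MACA 3 h replicate 4 was the highest of its group for 9 of the 10 factors, all but Egr3. Without that array 7 factors stayed called and Jun did not (log2 fold 0.32, adjusted p = 0.0564), and Jun was also lost without HBSS 3 h replicate 1 (log2 fold 0.34, adjusted p = 0.0781). Within the high set, which leaves 2 MACA and 3 HBSS arrays at this time, Fos, Fosl2, Junb, Atf3, Egr1 and Egr2 were called, and Fosb (log2 fold 1.12, adjusted p = 0.0864) and Jun (log2 fold 0.27, adjusted p = 0.0606) were not. Of 13 measured neutrophil markers, 5 were higher in MACA lungs, where 4.84% of all genes were higher. Their summed intensity was 8865 to 13702 in MACA lungs, against 1562 to 4748 in HBSS lungs, and 3 of the 13 were under noise on all MACA 3 h arrays. Of 11 macrophage and monocyte markers, 1 was higher, with sums of 20200.4 to 22647 in MACA lungs, against 15416 to 19068 in HBSS lungs. The part of these cells in the factors' levels was not tested. In homogenised lung, fewer cells of a type and less RNA per cell cannot be told apart.

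**Figure D2:**
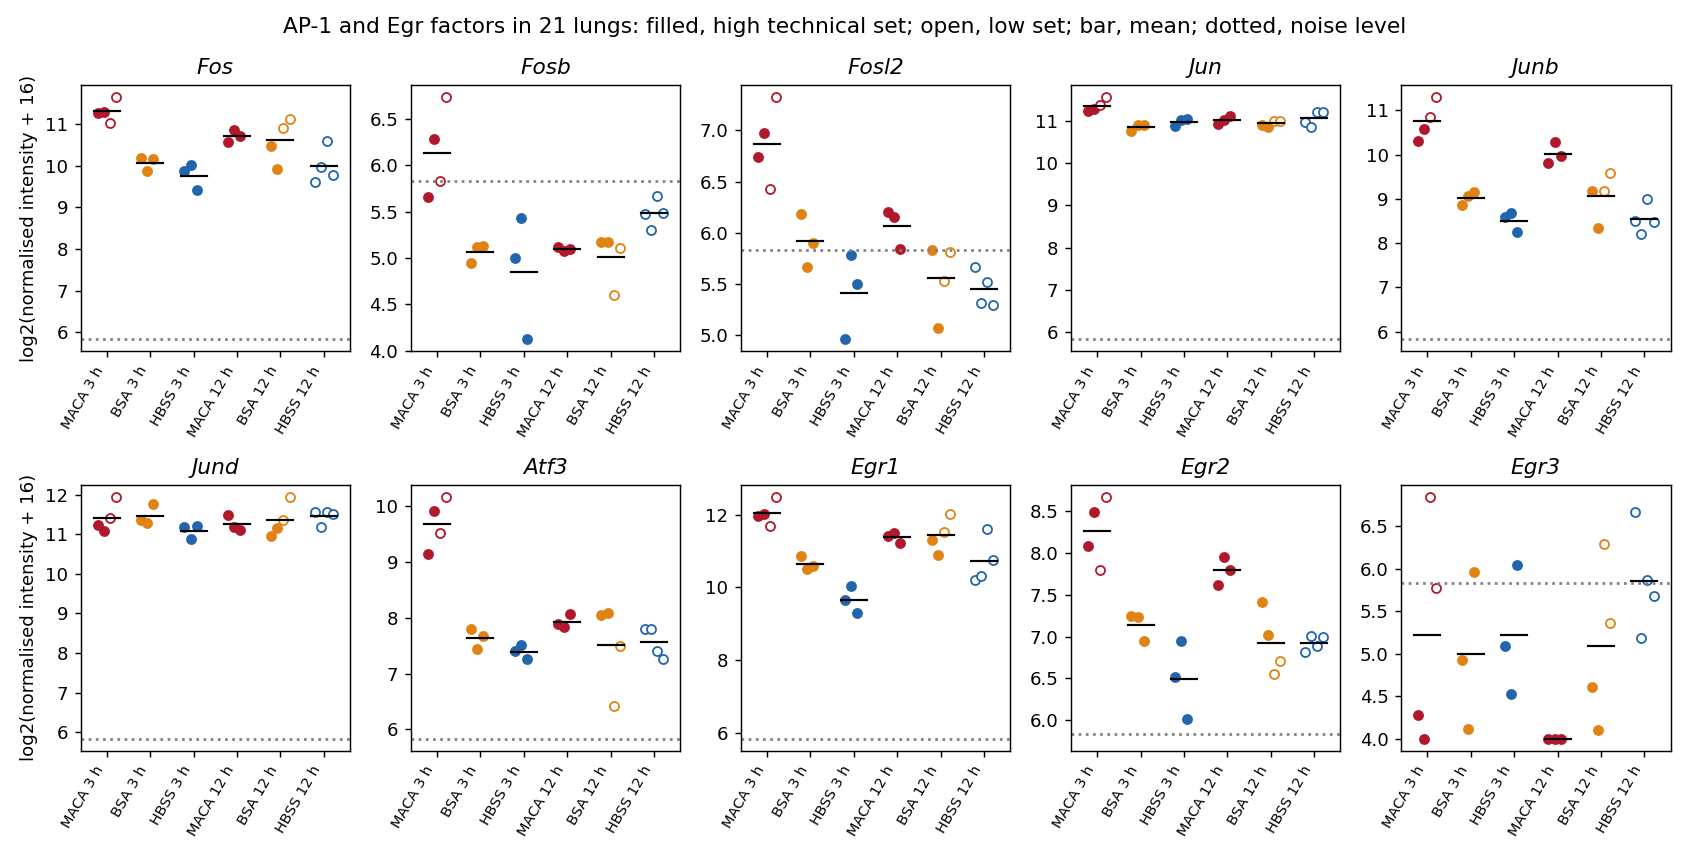
Normalised intensity of each factor in each lung on the log2(intensity + 16) axis, with its own scale per panel. Points are arrays, red for MACA, orange for BSA and blue for HBSS, filled in the high technical set and open in the low set; bars are group means and the dotted line is the noise level at 5.83. MACA 3 h has the highest mean for 8 factors, neighbouring Jund means lie within their spread, and Fosb, Fosl2 and Egr3 lie near the noise.

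The protein control gave a closer reference. Against BSA at 3 h, the same 8 factors passed the test in the same direction and none was lower, where 3.5% of all genes were higher and 2.45% lower. The 2 comparisons share the MACA arrays. Junb measured 448, 517 and 558 in the BSA lungs, all below the lowest MACA value (log2 fold 1.74 ± 0.26 (SE), adjusted p = 0.00134). Atf3 measured 206, 158 and 188 after BSA (log2 fold 2.05 ± 0.32 (SE), adjusted p = 0.00148). Fos measured 1145, 924 and 1124 after BSA (log2 fold 1.24 ± 0.26 (SE), adjusted p = 0.0121). For Fos and Atf3 the BSA values overlapped those of HBSS lungs, and for Junb they lay above them without passing the test. Egr1 measured 1859.6, 1437 and 1529 after BSA, between the MACA and the HBSS lungs (log2 fold 1.39 ± 0.31 (SE), adjusted p = 0.0151). Egr2 measured 135, 134 and 107 after BSA (log2 fold 1.12 ± 0.23 (SE), adjusted p = 0.0104). Both Egr genes still stood clear of the MACA arrays. Fosb measured 14.8, 18.6 and 18.9, all under noise, which makes the MACA level at least 1.23-fold higher (log2 fold 1.07, adjusted p = 0.0261). Fosl2 measured 56.8, 34.8 and 43.6 after BSA (log2 fold 0.95, adjusted p = 0.0253), and Jun 1735, 1903 and 1899.9 (log2 fold 0.51, adjusted p = 0.00416). Jund measured 2607, 2452 and 3452 after BSA and did not pass (log2 fold -0.04, adjusted p = 0.96, 95% interval -0.51 to 0.42). Egr3 did not pass either (log2 fold 0.23, adjusted p = 0.901).

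The count against BSA was less stable than that against HBSS. With the technical set as a term 5 factors were called, and Fosb (adjusted p = 0.0527), Fosl2 (adjusted p = 0.0635) and Egr1 (adjusted p = 0.0505) were not. Within the high set (2 MACA arrays, 3 BSA arrays) 5 were called, and Fosb (log2 fold 0.91, adjusted p = 0.188), Fosl2 (log2 fold 0.94, adjusted p = 0.142) and Egr2 (log2 fold 1.15, adjusted p = 0.0717) were not. Without MACA 3 h replicate 4 there were 5, and without BSA 3 h replicate 2 there were 4. Junb, Atf3 and Jun were called in all of these. With the groups compared alone 4 were called, and without scaling between arrays 1. Neither second probe set passed (Jun log2 fold 0.28, adjusted p = 0.0594; Egr2 log2 fold 0.81, adjusted p = 0.117, with 2.67% of all probe sets higher). The neutrophil markers summed to 8865 to 13702 in MACA lungs, against 2136 to 5042 in BSA lungs, with 5 of 13 higher, where 3.5% of all genes were higher. The part of these markers was not tested.

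BSA itself, against HBSS at 3 h, gave 0 called members of 10, where 0.161% of all genes were higher and 0.0161% lower. At an unadjusted limma p under 0.05 there were 2, both higher, against 10.6% of all genes in either direction. Egr1 measured 1859.6, 1437 and 1529 in BSA lungs, against 796, 1032 and 608 in HBSS lungs. The adjusted p missed the threshold (log2 fold 1.00 ± 0.33 (SE), adjusted p = 0.246). Fitted within the high set, where all 6 of these arrays lie, Egr1 passed (adjusted p = 0.039). The same 6 arrays are compared there and the log2 fold is unchanged at 1.00, so only the spread and the adjustment differ. With the set fitted as a term over all arrays Egr1 did not pass (adjusted p = 0.194). Egr2 was the other (log2 fold 0.64 ± 0.25 (SE), adjusted p = 0.349), with overlapping groups. Junb (log2 fold 0.52, adjusted p = 0.548, 95% interval -0.08 to 1.12) and Jund (log2 fold 0.38, adjusted p = 0.614, 95% interval -0.13 to 0.88) did not pass. Fos (log2 fold 0.30, adjusted p = 0.757), Jun (log2 fold -0.12, adjusted p = 0.709), Atf3 (log2 fold 0.25, adjusted p = 0.862) and Egr3 (log2 fold -0.22, adjusted p = 0.965) did not pass either. Fosl2 was under noise in the HBSS lungs (at least 1.06-fold higher, adjusted p = 0.49), and Fosb was under noise in both groups.

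**Figure D3:**
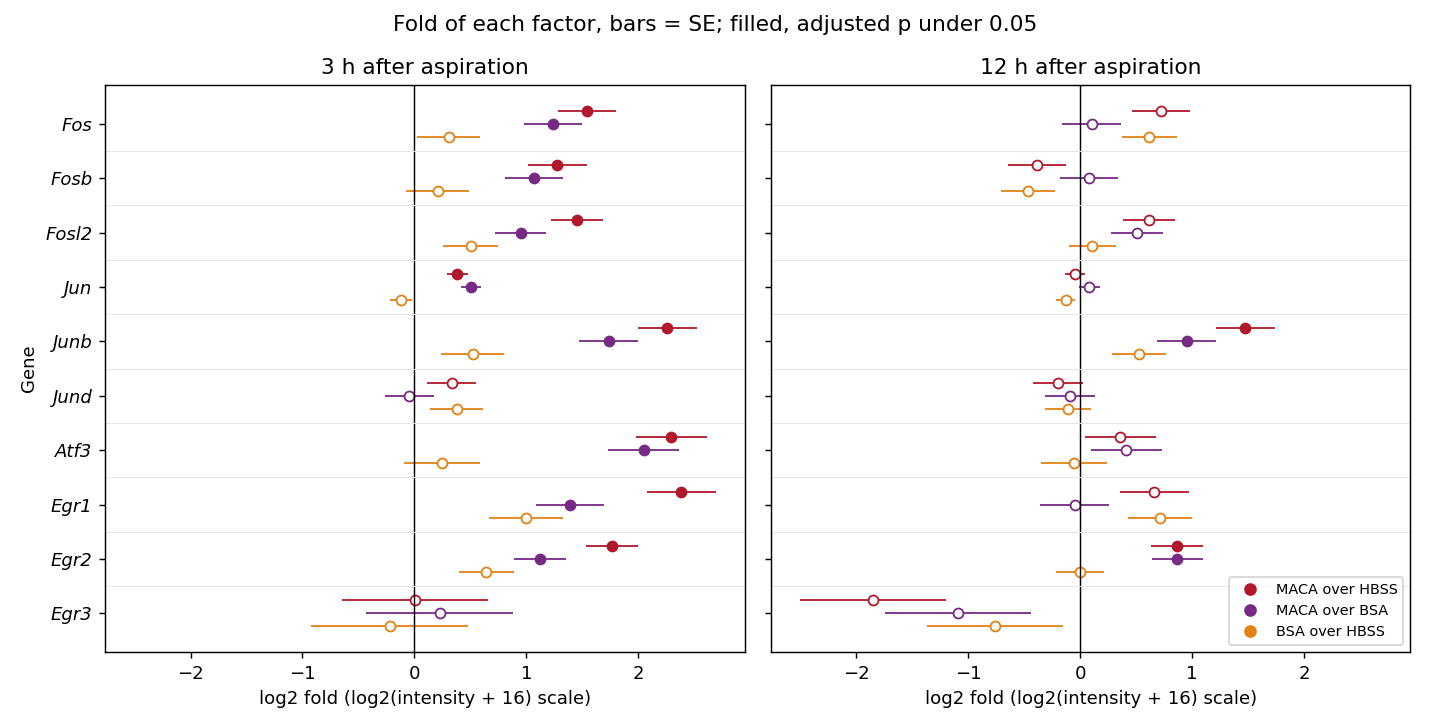
Log2 fold of each factor (rows) at 3 h and at 12 h, for MACA over HBSS (red), MACA over BSA (purple) and BSA over HBSS (orange); bars are standard errors and filled points have an adjusted p under 0.05. At 3 h both MACA contrasts are filled for 8 factors, at 12 h for Junb and Egr2, and no BSA over HBSS point is filled. Points for Fosb, Fosl2 and Egr3 against a group under noise are fitted values and not folds.

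At 12 h, 2 of the 10 factors, Junb and Egr2, were higher in MACA lungs than in HBSS lungs and none was lower. Of all genes, 10.2% were higher and 10.1% lower, so 2 of 10 is read as no result about the members as a set. Junb measured 887, 1231 and 992 in MACA lungs, against 345, 279, 499 and 342 in HBSS lungs. It was 2.79-fold higher, with no overlap (log2 fold 1.48 ± 0.26 (SE), adjusted p = 0.00116). Egr2 measured 181, 231 and 207 in MACA lungs, against 96.3, 113, 102 and 111 in HBSS lungs. It was 1.82-fold higher (log2 fold 0.87 ± 0.23 (SE), adjusted p = 0.0144). The call for Egr2 was lost with the technical set as a term (log2 fold 0.55, adjusted p = 0.242) and without MACA 12 h replicate 2 (log2 fold 0.79, adjusted p = 0.0707), and its second probe set did not pass (log2 fold 0.82, adjusted p = 0.0607, with 8.45% of all probe sets higher). All MACA 12 h arrays are in the high set and all HBSS 12 h arrays in the low set, so there is no value within a set. In this contrast the values with the set as a term carry over a set difference seen in the MACA 3 h and BSA 12 h arrays.

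Fos measured 1494, 1854 and 1660.5 in MACA lungs at 12 h, against 769, 979, 1535 and 864 in HBSS lungs. HBSS replicate 3 fell inside the MACA range, and Fos did not pass (log2 fold 0.72 ± 0.26 (SE), adjusted p = 0.061), but it passed with the set fitted as a term (log2 fold 1.16, adjusted p = 0.0257). Egr1 measured 2728, 2881 and 2389 after MACA, against 1158, 1253, 3132 and 1717 after HBSS. HBSS replicate 3 stood above every MACA array, and the difference did not pass (log2 fold 0.66 ± 0.31 (SE), adjusted p = 0.145). That HBSS array was the highest of its group for Fos, Fosb, Junb and Egr1. Without it 4 factors were called, Junb, Egr2, Fos (log2 fold 0.93, adjusted p = 0.0191) and Egr1 (log2 fold 0.96, adjusted p = 0.0202). Without BSA 12 h replicate 2, which enters this contrast only through the shared spread, the 4 were Junb, Egr2, Fos and Fosl2.

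Fosl2 measured 57.8, 55 and 41.4 in MACA lungs at 12 h, against 34.7, 23.9, 29.8 and 23.2 in HBSS lungs, all 4 under noise. It was at least 1.18-fold higher and did not pass (adjusted p = 0.069). Atf3, far from its 3 h level, measured 219.8, 212 and 252 after MACA, against 207, 207, 154 and 137 after HBSS (log2 fold 0.36 ± 0.32 (SE), adjusted p = 0.476). Jun measured 1945, 2077 and 2193 after MACA and 2013, 1845, 2365 and 2366 after HBSS (log2 fold -0.04, adjusted p = 0.802). None of these 3 passed. Jund measured 2845, 2319 and 2175 after MACA and 3017, 2322, 3002 and 2872 after HBSS (log2 fold -0.20, adjusted p = 0.596), with overlap. Fosb measured 18.7, 17.7 and 18.2 after MACA and 28.4, 23.3, 35 and 28.8 after HBSS, under noise on all arrays of both groups, and no fold is given for it. Egr3 measured -2.93, -8.75 and -15.9 after MACA, against 85.8, 20.3, 42.4 and 35.2 after HBSS. All 3 MACA values were below 0, which gives a level at least 1.01-fold lower against 2 HBSS arrays above noise (log2 fold -1.85, adjusted p = 0.0562). With the set fitted as a term the Egr3 difference was near 0 (log2 fold -0.03, adjusted p = 0.998). That term comes from the MACA 3 h and BSA 12 h arrays, where Egr3 was above noise on 1 array of each group, so it decides little.

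Neutrophil markers were also higher in MACA lungs at 12 h, 4 of 13, where 10.2% of all genes were higher and 10.1% lower. Their sums were 5443 to 9305 in MACA lungs, against 2253 to 4042 in HBSS lungs. Of 11 macrophage and monocyte markers 4 were higher (18541 to 20350.2 in MACA lungs, against 16416 to 18547 in HBSS lungs), as were 3 of 9 T, B and NK cell markers (1202 to 2356 in MACA lungs, against 664 to 1462 in HBSS lungs). Cardiac muscle markers were lower for 3 of 7 (5018 to 6622 in MACA lungs, against 8295 to 13646 in HBSS lungs). The part of these in the members' levels was not tested. Without scaling between arrays, the median of all genes shifted by −0.57 on the log2 scale in this contrast. Only Junb was then called higher, and Fosb, Jun, Jund and Egr3 were called lower. Relative to that shift the members' median was 0.43, against 0.49 with quantile normalisation (0.30 with Fosl2 and Egr3 at their bounds and Fosb at 0).

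Against BSA at 12 h, Junb and Egr2 were again the 2 factors higher in MACA lungs, where 4.07% of all genes were higher and 5.58% lower. Junb measured 564, 311, 563 and 753 in the BSA lungs, all below the lowest MACA array (log2 fold 0.95 ± 0.26 (SE), adjusted p = 0.0314). Egr2 measured 154, 114, 78 and 88.2 after BSA (log2 fold 0.87 ± 0.23 (SE), adjusted p = 0.0257), and its second probe set also passed (log2 fold 1.11, adjusted p = 0.0277, with 3.18% of all probe sets higher). Within the high set (3 MACA arrays, 2 BSA arrays) Junb was called (log2 fold 1.26, adjusted p = 0.0301) and Egr2 was not (log2 fold 0.58, adjusted p = 0.272), and likewise with the set fitted as a term (Egr2 log2 fold 0.71, adjusted p = 0.102). No member was called without MACA 12 h replicate 2, without MACA 12 h replicate 3 or without BSA 12 h replicate 3, and 1 was called without BSA 12 h replicate 2 or replicate 4. Fos measured 1414, 949.6, 1919 and 2210.3 in BSA lungs and Egr1 2522, 1884, 2914 and 4129. Both ranges enclosed all MACA values (Fos log2 fold 0.10, adjusted p = 0.872; Egr1 log2 fold -0.05, adjusted p = 0.968). The BSA lungs spread widely: replicate 4 was highest for Fos, Jun, Junb, Jund and Egr1, and Atf3 measured 250.3, 257, 69.2 and 163. Of the others, Fosl2 measured 41, 17.5, 30 and 40.1 after BSA and did not pass (log2 fold 0.51 ± 0.23 (SE), adjusted p = 0.182). Jun (log2 fold 0.08, adjusted p = 0.638), Jund (log2 fold -0.09, adjusted p = 0.872), Atf3 (log2 fold 0.41, adjusted p = 0.46) and Egr3 (under noise in MACA lungs, adjusted p = 0.328) did not pass either, and Fosb was under noise throughout. Neutrophil marker sums overlapped here (5443 to 9305 in MACA lungs, 3725 to 8259.8 in BSA lungs), with 2 of 13 markers higher. Of 11 macrophage and monocyte markers 2 were higher (18541 to 20350.2 in MACA lungs, 15788 to 20222 in BSA lungs), and cardiac muscle markers were lower for 3 of 7 in MACA lungs (5018 to 6622, against 9487 to 12487 in BSA lungs). Their part was not tested.

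BSA against HBSS at 12 h gave 0 called members, where 0.557% of all genes were higher and 0.791% lower. At an unadjusted limma p under 0.05 there were 3, all higher in BSA lungs, against 16.9% of all genes in either direction. They were Egr1 (log2 fold 0.71 ± 0.28 (SE), adjusted p = 0.213), Fos (log2 fold 0.62 ± 0.24 (SE), adjusted p = 0.205) and Junb (log2 fold 0.53 ± 0.24 (SE), adjusted p = 0.287). All had overlapping groups. The fit behind these p-values did not pair the arrays, although same-numbered arrays of the 2 groups deviated together (correlations 0.14 to 0.34). With the technical set as a term Fos (log2 fold 0.84, adjusted p = 0.0403) and Junb (log2 fold 0.84, adjusted p = 0.0233) passed. Within the low set, with 2 BSA and 4 HBSS arrays, neither did (Fos log2 fold 1.03, adjusted p = 0.128; Junb log2 fold 0.83, adjusted p = 0.132). Jun (log2 fold -0.13, adjusted p = 0.484), Jund (log2 fold -0.11, adjusted p = 0.859), Atf3 (log2 fold -0.05, adjusted p = 0.978), Egr2 (log2 fold -0.00, adjusted p = 1) and Egr3 (log2 fold -0.76, adjusted p = 0.573) did not pass. Fosb was under noise in both groups and Fosl2 in the HBSS lungs, with no fold given.

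Between the times, MACA lungs at 12 h had 4 of the 10 factors lower than MACA lungs at 3 h and none higher, where 5.59% of all genes were higher and 5.15% lower. The members' log2 folds ran from -1.76 to -0.16 with a median of -0.70 (-0.53 with Fosb at its bound and Egr3 at 0), against 0.00 over all genes. Atf3 fell most among those called, to 219.8, 212 and 252 at 12 h, against 547, 953, 718 and 1134 at 3 h (log2 fold -1.76 ± 0.32 (SE), adjusted p = 0.00193). Fosb at 12 h was under noise on every array, at least 1.23-fold lower than at 3 h (log2 fold -1.03 ± 0.26 (SE), adjusted p = 0.0178). Fosl2 (log2 fold -0.80 ± 0.23 (SE), adjusted p = 0.0345) and Jun (log2 fold -0.34 ± 0.09 (SE), adjusted p = 0.0233) also fell. Their groups did not overlap. Junb (log2 fold -0.74 ± 0.26 (SE), adjusted p = 0.0875), Egr1 (log2 fold -0.66 ± 0.31 (SE), adjusted p = 0.197) and Fos (log2 fold -0.60 ± 0.26 (SE), adjusted p = 0.17) did not pass. Egr2 (log2 fold -0.47, adjusted p = 0.226) and Jund (log2 fold -0.16, adjusted p = 0.722) did not pass either. Egr3 was under noise on all 12 h arrays and did not pass (adjusted p = 0.271).

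The fall of Atf3 was called with the set fitted as a term (log2 fold -1.96, adjusted p = 0.00226) and within the high set (log2 fold -1.60, adjusted p = 0.00388). That of Fosb was called with the set fitted as a term (adjusted p = 0.0378) and not within the high set (log2 fold -0.88, adjusted p = 0.14), and Fosl2 and Jun were called in neither. Without MACA 3 h replicate 4 only Atf3 was called, as without MACA 12 h replicate 2. Fosb and Atf3 were called without MACA 12 h replicate 1, and Jun and Atf3 without replicate 3. Neutrophil markers summed to 5443 to 9305 at 12 h, against 8865 to 13702 at 3 h, with 1 of 13 lower, where 5.15% of all genes were lower. Of 11 macrophage and monocyte markers 2 were higher at 12 h, where 5.59% of all genes were higher. The part of these markers was not tested.

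BSA lungs had 0 called members at 12 h against 3 h, where 3.37% of all genes were higher and 1.93% lower. At an unadjusted limma p under 0.05 there was 1, Egr1 (log2 fold 0.78 ± 0.31 (SE), adjusted p = 0.146). At that threshold stood 22.6% of all genes. The log2 folds of the other measured factors in BSA lungs lay between -0.36 (Fosl2) and 0.54 (Fos), and Fosb was under noise. HBSS lungs had 1 member higher, Egr1, where 4.07% of all genes were higher and 3.82% lower. Egr1 measured 1158, 1253, 3132 and 1717 in HBSS lungs at 12 h, against 796, 1032 and 608 at 3 h (log2 fold 1.06 ± 0.31 (SE), adjusted p = 0.0443). All 12 h arrays were above all 3 h arrays. The other measured factors, Fos, Jun, Junb, Jund, Atf3, Egr2 and Egr3, did not pass, with log2 folds between 0.04 (Junb) and 0.63 (Egr3), and Fosb and Fosl2 were under noise at both times. The call was lost in 19 of 30 other settings, among them the set as a term (log2 fold 0.68, adjusted p = 0.315) and 15 of the 21 fits that leave out an array. It was lost without HBSS 12 h replicate 3 (log2 fold 0.76, adjusted p = 0.0976) and without HBSS 3 h replicate 3 (log2 fold 0.87, adjusted p = 0.169). The HBSS 3 h arrays are all in the high set and the HBSS 12 h arrays all in the low set, so the set and the time cannot be told apart within the HBSS lungs.

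Whether the distance of MACA from HBSS lungs differed between the times was tested directly. For 3 factors the difference was smaller at 12 h, where 1.84% of all genes had a smaller and 2.07% a larger value. They were Atf3 (log2 difference -1.94 ± 0.45 (SE), adjusted p = 0.025), Egr1 (log2 difference -1.72 ± 0.43 (SE), adjusted p = 0.0383) and Fosb (adjusted p = 0.021). Fosb was under noise on every array of 3 of the 4 groups, so no size is given for it. The other 7 did not pass, Jun with the lowest adjusted p (log2 difference -0.43 ± 0.13 (SE), adjusted p = 0.0739). For Egr1 the MACA mean was 11.38 ± 0.14 at 12 h, against 12.05 ± 0.33 at 3 h, and the HBSS mean 10.72 ± 0.65 at 12 h, against 9.66 ± 0.37 at 3 h (log2, SD). With the set fitted as a term only Atf3 was called (log2 difference -2.54, adjusted p = 0.0452), while Fosb (adjusted p = 0.0989) and Egr1 (log2 difference -1.15, adjusted p = 0.289) were not. Leaving out MACA 3 h replicate 4 or HBSS 3 h replicate 1 left Fosb alone, and leaving out HBSS 3 h replicate 3 or MACA 12 h replicate 2 left 0.

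The order of the 6 group means differed among the factors. MACA 3 h was highest for 8 of them, by more than the larger of the 2 neighbouring SDs in each. For Junb and Egr2, MACA 12 h came next and was again clear of the group below it. Junb averaged 10.76 ± 0.42 in MACA 3 h, 10.03 ± 0.24 in MACA 12 h and 9.07 ± 0.52 in BSA 12 h (log2, SD, n = 4, 3 and 4). Egr2 averaged 8.26 ± 0.40 in MACA 3 h, 7.79 ± 0.16 in MACA 12 h and 7.14 ± 0.17 in BSA 3 h (n = 4, 3 and 3). For Fos, MACA 12 h (10.71 ± 0.15) and BSA 12 h (10.61 ± 0.53) were next and did not differ beyond their spread, and the same 2 groups were next for Egr1. For Atf3, MACA 12 h (7.93 ± 0.12) stood 0.29 above BSA 3 h (7.64 ± 0.18), and the remaining groups did not differ from their neighbours beyond their spread. For Jund no neighbouring groups did.

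**Figure D4:**
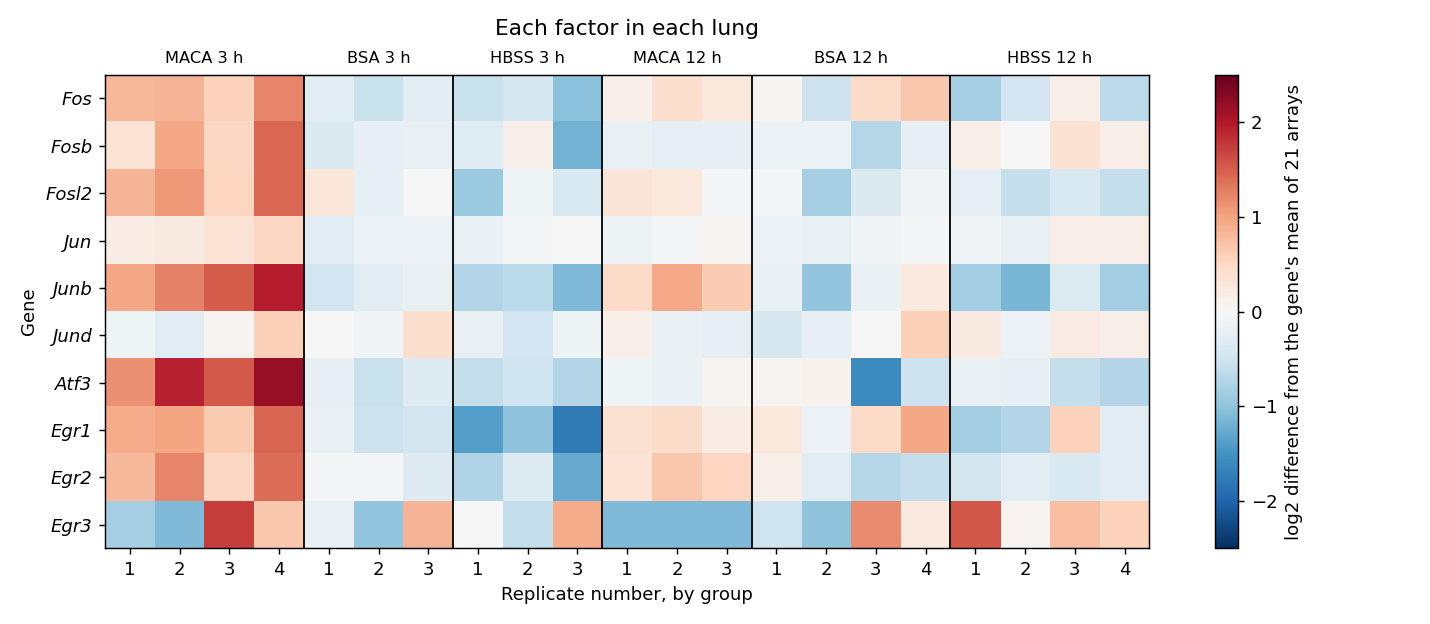
Difference of each factor (rows) in each of the 21 arrays (columns, by group and replicate number) from that factor's mean over all arrays, in log2 units; red is above and blue below the mean. The 4 MACA 3 h columns are red for 8 factors and deepest in replicate 4, and the HBSS 12 h columns differ among themselves, with replicate 3 above the others for Fos and Egr1.

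Genes outside the set with the most similar pattern were found by the root mean square difference of the 6 group means, each gene centred on its own mean, among 9436 genes above noise on at least 3 arrays. Nearest to Fos was Gadd45g (0.12 log2 units), to Fosb Ptgs2 (0.13), to Fosl2 Rhou (0.11) and to Junb Relb (0.16), followed by Nfkb2 (0.18). Nearest to Atf3 was Mmp8 (0.12), a neutrophil collagenase and one of the neutrophil markers above, then Arid5a (0.18) and Ptx3 (0.19). Mmp8 does not stand for that list: in MACA lungs at 12 h against 3 h the 13 markers had a median log2 fold of -0.20, against -1.76 for Atf3. Egr2 was nearest to Casp4 (0.14) and Egr1 to Mycn (0.26). Jun (Lcat, 0.04) and Jund (Mcrip2, 0.03) varied so little over the groups, by 0.51 and 0.38 from lowest to highest mean, that small differences say little. Egr3 was nearest to Ogn (0.14). Within the set, Egr2 was the nearest member to Fos (0.26), Fosl2 (0.20) and Junb (0.28).

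The next list holds 16 other measured basic leucine zipper factors, of the AP-1 family and of related families. In MACA lungs 4 were higher than in HBSS lungs at 3 h and none lower, against 4.84% and 3.28% of all genes. The median log2 fold of the 16 was 0.28. Fosl1 (Fra-1) measured 182, 170, 182 and 238 after MACA, against 2.62, -4.54 and -9.7 after HBSS, which is at least 3.65-fold higher (adjusted p = 0.00193). Fosl1 was also the 1 factor of this list called for BSA against HBSS at 3 h, where 0.161% of all genes were higher. It measured 174, 261 and 228 in BSA lungs, at least 4.12-fold above HBSS (adjusted p = 0.0209), and the MACA to BSA difference did not pass (log2 fold -0.17, adjusted p = 0.928). At 12 h it measured 3.7, 9.46 and 5.71 in MACA lungs, 93.5, 97.8, -9.94 and 14.9 in BSA lungs and 63.6, 64.9, -11.1 and 4.8 in HBSS lungs. The small Maf protein Maff (log2 fold 1.08, adjusted p = 0.00252), Atf5 (log2 fold 0.78, adjusted p = 0.0135) and Atf4 (log2 fold 0.52, adjusted p = 0.00406), which mediates the amino acid and unfolded protein response, were the other 3. Batf3 just missed (log2 fold 0.71, adjusted p = 0.0509). At 12 h 5 were higher and 2 lower, against 10.2% and 10.1%, with Batf3 (log2 fold 1.24, adjusted p = 0.000875) and Maff (log2 fold 0.99, adjusted p = 0.00215) higher and Crem (log2 fold -0.54, adjusted p = 0.00352) lower. Of the 5, Batf2 was under noise on all arrays of both groups, so no fold is given for it. With the set fitted as a term neither Batf2 (adjusted p = 0.349) nor Atf7 (adjusted p = 0.574) passed. Without MACA 12 h replicate 2 the 12 h counts were 3 and 1, and within the high set at 3 h 2 were called. In MACA lungs at 12 h against 3 h, where 5.15% of all genes were lower, Fosl1 (at least 3.65-fold), Maff (log2 fold -0.95, adjusted p = 0.00443) and Atf6 (log2 fold -0.46, adjusted p = 0.00752) were lower. None of Egr4 and the Egr co-repressors Nab1 and Nab2 was called at either time (Nab2 at 3 h log2 fold 0.44, adjusted p = 0.158), though 1 was without MACA 3 h replicate 1.

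Of 38 other immediate early genes, 16 were higher and 3 lower in MACA lungs at 3 h, against 4.84% and 3.28% of all genes (median 0.39, or 0.32 with dim genes at their bounds). The growth regulator Myc (log2 fold 1.99, adjusted p = 0.00643), the matrix protein gene Thbs1 (log2 fold 1.52, adjusted p = 0.000601), Trib1 (log2 fold 1.30, adjusted p = 0.000507) and the growth arrest genes Gadd45g (log2 fold 1.31, adjusted p = 0.00445) and Gadd45a (log2 fold 1.29, adjusted p = 0.0155) rose most. At 12 h 8 were higher and 7 lower, against 10.2% and 10.1% (5 in all without MACA 12 h replicate 2). Thbs1 (log2 fold 1.09, adjusted p = 0.00331) and the phosphatase Dusp2 (log2 fold 0.98, adjusted p = 0.0111) were higher, and neither passed with the set fitted as a term (adjusted p = 0.0727 and 0.243). The clock gene Per1 (log2 fold -1.26, adjusted p = 0.0202), the nuclear receptor Nr4a2 (log2 fold -1.13, adjusted p = 0.000546) and the EGF receptor inhibitor Errfi1 (log2 fold -0.99, adjusted p = 0.000821) were lower. In MACA lungs 10 were lower at 12 h than at 3 h and none higher, against 5.15% and 5.59%, among them Per1 (log2 fold -2.31, adjusted p = 0.00072), Errfi1 (log2 fold -1.40, adjusted p = 7.5e-05) and Zfp36 (log2 fold -1.07, adjusted p = 0.00126), which destabilises cytokine mRNAs.

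Of the machinery upstream, none of 8 SRF, ternary complex and co-activator genes was called at 3 h by limma, nor was any at an unadjusted p under 0.05, where 23.8% of all genes stood (Srf log2 fold 0.21, adjusted p = 0.278). At 12 h Elk1 (log2 fold 0.66, adjusted p = 0.00631) and Mrtfa (log2 fold 0.61, adjusted p = 0.00249) were higher and Ets2 (log2 fold -0.42, adjusted p = 0.0194) was lower, the last not with the set fitted as a term (adjusted p = 0.751). These 2 higher and 1 lower of 8 stood against 10.2% and 10.1% of all genes, so the 1 lower is near that share. Of 15 MAP kinase cascade genes 3 were higher at 3 h, against 4.84% of all genes. They were Map3k8 (log2 fold 1.01, adjusted p = 0.00176), a kinase that acts below Toll-like and tumour necrosis factor receptors, Mapkapk2 (log2 fold 0.74, adjusted p = 0.00511), which is activated by p38, and Map2k3 (log2 fold 0.42, adjusted p = 0.00783), which activates p38. At 12 h 4 were higher and 2 lower, against 10.2% and 10.1%, with Map3k8 (log2 fold 1.21, adjusted p = 0.000225) and Map2k6 (log2 fold -0.85, adjusted p = 0.00181) furthest in each direction.

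Genes with described AP-1 sites were mostly higher at both times. Of 18 measured, 12 were higher and none lower at 3 h, against 4.84% and 3.28% of all genes (median 0.91, or 0.78 with dim genes at their bounds), and 11 were higher and none lower at 12 h, against 10.2% and 10.1% (median 0.63). Of these, the cytokine Il6 was at least 13.5-fold higher at 3 h (adjusted p = 0.000105), and the chemokine Ccl2 (log2 fold 4.30, adjusted p = 8.2e-05) and the growth factor Csf2 (log2 fold 2.66, adjusted p = 5.86e-05) also rose. At 12 h Ccl2 (log2 fold 3.79, adjusted p = 0.000141) and the protease inhibitor Timp1 (log2 fold 3.72, adjusted p = 0.000146) were furthest up. In MACA lungs at 12 h against 3 h 2 were higher and 5 lower, against 5.59% and 5.15% of all genes. Timp1 (log2 fold 2.24, adjusted p = 0.0078) was among those higher. Csf2 (log2 fold -2.22, adjusted p = 0.000202) and Il6 (log2 fold -1.85, adjusted p = 0.0473) were among those lower. These counts were 1 and 3 within the high set or without MACA 3 h replicate 3. With the set fitted as a term Il6 had an adjusted p of 0.0585. The 3 h count was 7 within the high set and without HBSS 3 h replicate 3, and the 12 h count was 6 with the set fitted as a term and without MACA 12 h replicate 2. Of 10 genes with described Egr sites, 2 were higher and none lower at 3 h, against 4.84% and 3.28% of all genes. They were the cytokine Tnf (at least 2.05-fold, adjusted p = 0.00626) and the adhesion molecule Icam1 (log2 fold 1.10, adjusted p = 4.17e-05). At 12 h 4 were higher and 1 lower, against 10.2% and 10.1% of all genes, so the 1 lower is near that share. Those higher were Tnf (at least 2.69-fold, adjusted p = 0.00039), Tgfb1 (log2 fold 0.94, adjusted p = 0.00494), Icam1 (log2 fold 0.57, adjusted p = 0.00292) and Pdgfb (log2 fold 0.57, adjusted p = 0.0196). Igf2 was lower (log2 fold -0.54, adjusted p = 0.00199). With the set fitted as a term Tgfb1 (adjusted p = 0.0825) and Pdgfb (adjusted p = 0.0535) did not pass. These lists are background groupings, and many of their genes also answer to NF-kB and other factors. The neutrophil marker sums given above moved with each of these 3 h and 12 h contrasts, and their part was not tested.

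**Figure D5:**
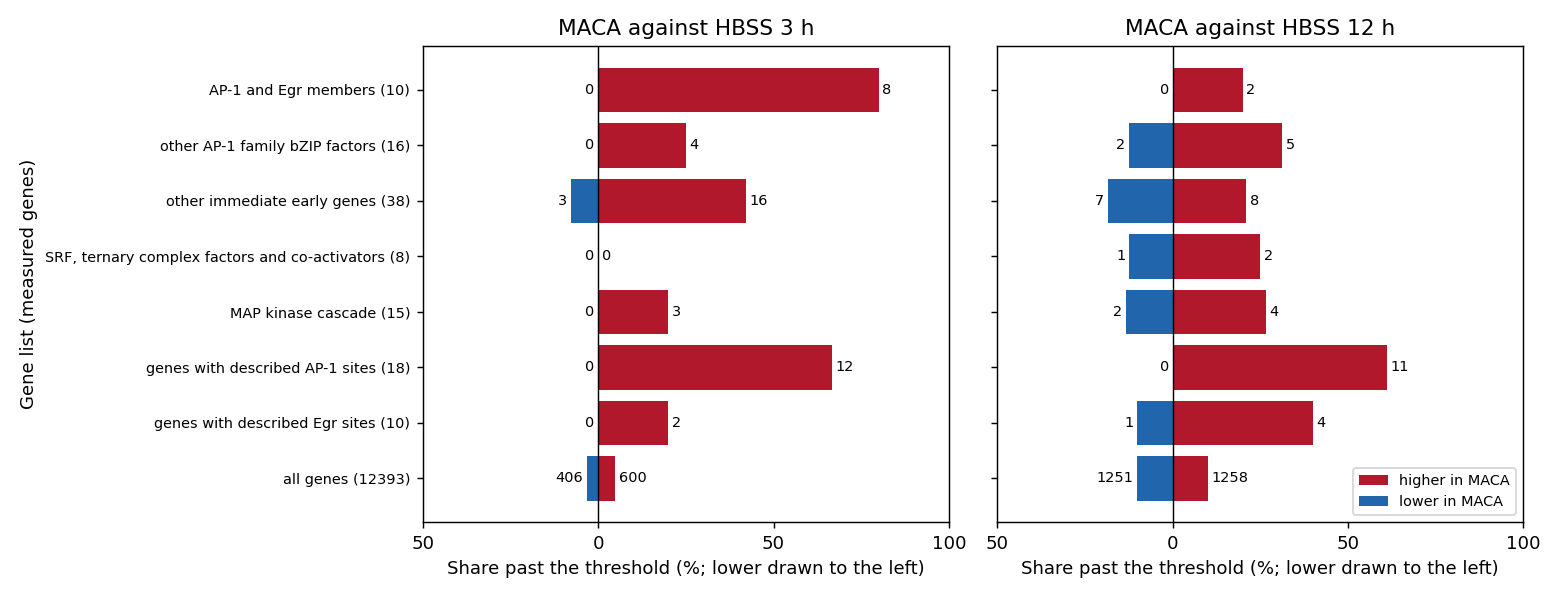
Share of each gene list (rows, with the number of measured genes) that passed an adjusted p under 0.05 for MACA against HBSS at 3 h and at 12 h; red bars to the right are higher in MACA, blue bars to the left lower, and the figures at the bar ends are gene counts. The 10 factors have the largest share higher at 3 h (8 genes), and the genes with described AP-1 sites at 12 h (11 genes), against 600 and 1258 of all 12393 genes.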

How the data were processed

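The authors' deposited table held 1 column of intensity values per array for 22690 probe sets, on a linear scale and with 9.37% to 11.1% of an array's values below 0. Per the labels' protocols, biotin-labelled cRNA was made from total RNA; no source used here gives the summary method or the scaling. The medians of the deposited intensities differed up to 3.08-fold between arrays. Here 64 control probe sets were left out, the intensities were quantile normalised, values below 0 set to 0 and log2(value + 16) taken. Symbols came from the platform annotation, updated by gene number through the RefSeq table of GRCm38.p6 (20380 probe sets with 1 symbol, 691 with several, 1555 with none), and the brightest probe set stood for a gene. limma 3.58.1 (R 4.3.3) fitted 6 group means to 21 arrays (15 residual degrees of freedom) for 10 two-sided comparisons, with Benjamini-Hochberg adjustment over 12393 genes and a threshold of 0.05, and was tested on simulated data. The noise level is the 95th percentile of how far negative values reached below 0. A gene at or under it on every array of 1 group has a fold given as at least N, the other group's mean over the noise level, and no fold where both groups are under it or the bound is below 1. Array number limits the precision. Alternatives were other scalings, a pseudocount of 64, leaving out dim genes, all probe sets, groups compared alone, the technical set (split at a control ratio of 1.4) as a term or within sets, a replicate block, an eBayes trend and leaving out each array.

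In BSA and HBSS lungs at 12 h same-numbered arrays deviated together in all 4 pairs (correlations of the deviations 0.14 to 0.34). The p-values given for that comparison do not pair these arrays. The replicate number was fitted as a block only as an alternative. All 10 factors could be named in every comparison. Of each list, up to 5 genes with the largest called change and up to 2 not called could be named, and 3 genes of like pattern per factor. Fosl1 in the BSA comparisons was chosen after its values were seen. The members and lists were chosen with earlier results of these data known. Figures used python 3.11.15 and matplotlib 3.10.9.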

Additional observations from a re-analysis of the deposited data

Results flagged for a closer look

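The MACA to HBSS difference of 3 factors differed between the times by its own test: Atf3 (-1.94 on the log2 scale, 12 h minus 3 h), Egr1 (-1.72) and Fosb (-1.66). Fosb was under noise on all arrays of 3 of the 4 groups, so its value is a fitted one with no size to read. The adjusted limma p-values were 0.025, 0.0383 and 0.021. With the technical set as a term they were 0.0452, 0.289 and 0.0989, so that only Atf3 was called. One array stood far from its group: for Fosb in BSA 12 h lungs, the gap between replicate 3, the lowest, and the next array took 0.884 of the group's range. The values were 20.1, 20.1, 8.32 and 18.5, all under the noise level. Chance gives such a flag in about 1 of 20 groups, and 36 groups were looked at.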

How the results depend on the processing

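Of 28 called results for single factors, 8 were called in every setting that could be fitted and 0 reversed, over 11 alternatives and 21 fits that leave out 1 array. Of 72 uncalled results, 27 were called in some setting. The number of factors called moved as follows. Without scaling it was 5 for MACA against HBSS at 12 h (2 as reported), 1 for MACA against BSA at 3 h (8) and 0 at 12 h (2), 3 for BSA against HBSS at 12 h (0), 0 for MACA 12 h against 3 h (4), 7 for HBSS 12 h against 3 h (1) and 10 for the time difference of the MACA contrast with HBSS (3). The median of all genes then shifted by 0.72 for HBSS 12 h against 3 h and by −0.45 for BSA against HBSS at 12 h and by −0.66 for that time difference. With 1 median per array it was 0 for HBSS 12 h against 3 h. Without dim genes it was 5 for MACA against HBSS at 12 h. With the groups compared alone it was 5 for MACA against HBSS at 12 h, 4 and 0 for MACA against BSA at 3 h and 12 h, 1 for MACA 12 h against 3 h and 0 for HBSS 12 h against 3 h. With the technical set as a term it was 5 and 1 for MACA against BSA at 3 h and 12 h, 2 for BSA against HBSS at 12 h, 2 for MACA 12 h against 3 h, 0 for HBSS 12 h against 3 h and 1 for the time difference. Within the high set it was 5 and 1 for MACA against BSA at 3 h and 12 h, 1 for BSA against HBSS at 3 h and 1 for MACA 12 h against 3 h. The causes were not tested. Same-numbered arrays deviated together by correlations of −0.14 to 0.34 over 19 pairs, 7 of them over 0.1, so the numbers were in general not taken to pair animals. In BSA and HBSS lungs at 12 h all 4 pairs were over 0.1. The p-values given for that comparison do not pair the arrays, and a fit with the replicate number as a block left 0 called. A replicate block gave 0 for HBSS 12 h against 3 h and 1 for the time difference, and left the other counts within 1.5 times. Leaving out 1 array at a time gave 7 to 8 for MACA against HBSS at 3 h and 1 to 4 at 12 h, 4 to 8 for MACA against BSA at 3 h and 0 to 2 at 12 h, 0 for BSA against HBSS at both times and for BSA 12 h against 3 h, 1 to 5 for MACA 12 h against 3 h, 0 to 1 for HBSS 12 h against 3 h and 0 to 3 for the time difference. For arrays the signal over background limits Fosb, Fosl2 and Egr3. No value within a set could be had for MACA against HBSS at 12 h, HBSS 12 h against 3 h or the time difference.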
